A study of Mus musculus with 6 samples.

Results

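The genes described here are p53 itself (Trp53), its inhibitors Mdm2 and Mdm4, and 7 genes that p53 is known to activate directly, namely Cdkn1a, Ccng1, Btg2, Sesn1, Trp53inp1, Aen and Bax. They were chosen by name, with earlier results of these data known. A gene was measured by the array probe sets annotated to it alone. Of these 10 genes, 8 had such a probe set, out of 7746 genes measured in all. Trp53 and Bax matched no probe set in the annotation used and are not analysed here. The 8 measured genes had 19 probe sets, of which 18 passed the filter on low signals (a mean over the arrays of at least 8.33 units), and the third probe set of Aen did not. Each gene is given by the probe set with its highest mean signal, called the brightest, and the others serve as a check.

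p53 is a transcription factor that is activated by DNA damage and other stresses and switches on genes that stop the cell cycle, repair damage or start cell death. Mdm2 is a ubiquitin ligase that binds p53, blocks it and marks it for degradation. Because Mdm2 is also a p53 target, the pair forms a feedback loop, and the levels of Mdm2 and of other targets are often read as a sign of p53 activity. Severe hypoxia is known to engage this pathway through the replication checkpoint kinases in some cell types.

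The RNA came from B16, an established mouse melanoma line, and was read on 6 arrays, 1 for each group. As in any bulk sample, fewer cells of a kind and less RNA per cell cannot be told apart. All cells went into medium without serum 2 h before the exposure and were then held for 3 h in normoxia, for 3 h in hypoxia below 1% oxygen (chronic hypoxia), or through 3 hypoxic periods of 1 h with 30 min of reoxygenation in between (cyclic hypoxia). RNA was collected at the end or 1 h later, and for the hypoxic cells that further hour was spent in reoxygenation. With its breaks the cyclic regime ran longer than the chronic regime. The labels do not say whether normoxia was lengthened to match the cyclic regime, nor whether the arrays came from separate cultures. Melanocyte markers were bright, with means of 1126 to 6064 units at the 6 that were measured of 7, whereas the 17 markers on the array of 4 other cell types (fibroblast, immune, endothelial, keratinocyte) had means of at most 10.0 units. The array after cyclic hypoxia and reoxygenation stood furthest from the others, with a mean correlation of 0.940 across genes against 0.962 to 0.967. Of the 6 melanocyte markers only Mitf, the master regulator of the lineage, was past 2-fold there. It differed by -2.02 on the log2 scale, at 635 against 2568 units in the matching normoxia array. The other markers differed by 0.06 (Tyr), 0.26 (Dct), 0.29 (Pmel), 0.12 (Tyrp1) and -0.25 (Sox10), and the median of the 6 was 0.09. The ratio of 3' to 5' signal on that array, a sign of RNA quality, was 1.17 for actin and 0.845 for Gapdh. On the other arrays it was 1.20 to 1.25 and 0.799 to 0.900.

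The sequence just before the start site is shown for 3 genes with bright probe sets. At their brightest probe sets Mdm2 and Ccng1 had lower signals on all hypoxia arrays and Cdkn1a, the classic p53 target, did not, hence the choice. p53 acts on Mdm2 mainly through a promoter inside an intron, which this window does not cover. The sequences are the 250 bases before the annotated start, from RefSeq on GRCm38.p6, written 5′ to 3′ on the strand of the gene. Capitals mark matches to the p53 half-site consensus, which reads the same on both strands, and to the core of the hypoxia response element, ACGTG or GCGTG on either strand. No match of one overlapped a match of the other.

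Mdm2 (chr10:117710759-117711008, minus strand): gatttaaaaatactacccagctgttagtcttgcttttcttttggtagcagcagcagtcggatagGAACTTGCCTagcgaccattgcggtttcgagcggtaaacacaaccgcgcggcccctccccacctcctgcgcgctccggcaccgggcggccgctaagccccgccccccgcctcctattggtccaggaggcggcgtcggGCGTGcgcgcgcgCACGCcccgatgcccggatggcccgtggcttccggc

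Ccng1 (chr11:40755287-40755536, minus strand): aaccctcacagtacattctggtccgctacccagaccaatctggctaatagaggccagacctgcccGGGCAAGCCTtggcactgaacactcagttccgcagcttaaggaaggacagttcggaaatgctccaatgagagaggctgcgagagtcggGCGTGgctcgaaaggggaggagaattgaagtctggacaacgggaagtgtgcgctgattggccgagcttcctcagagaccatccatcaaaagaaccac

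Cdkn1a (chr17:29090729-29090978, plus strand, the upstream of its annotated starts): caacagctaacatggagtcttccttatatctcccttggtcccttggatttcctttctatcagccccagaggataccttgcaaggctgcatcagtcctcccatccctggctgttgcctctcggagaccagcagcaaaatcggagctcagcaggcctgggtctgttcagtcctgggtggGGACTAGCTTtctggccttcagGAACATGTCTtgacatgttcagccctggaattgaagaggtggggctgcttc

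The Mdm2 window held 1 p53 half-site match, ending 176 bases before the start, and 2 hypoxia cores. The Ccng1 window held 1 half-site match, ending 175 bases before the start, and 1 hypoxia core, and the Cdkn1a window held 2 half-site matches and 0 hypoxia cores. The window of the other annotated Cdkn1a start (chr17:29093519-29093768), not printed, held 0 half-site matches and 1 hypoxia core. Among the measured genes, 7 had an entry in the promoter table, with 11 start sites, and 5 of those 11 windows held a half-site match and 7 a hypoxia core. Of all 32851 promoter windows of this length, 7.13% held a half-site match and 38.6% a hypoxia core. A match describes these letters and was not tested as a binding site.

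At the brightest probe sets the signals of Trp53inp1, Mdm2, Ccng1 and Sesn1 were below both normoxia arrays on every hypoxia array. Those of Cdkn1a, Btg2, Mdm4 and Aen overlapped them. The margin for Ccng1 was 0.09 on the log2 scale, while its normoxia arrays differed by -0.21. Trp53inp1, Mdm2, Ccng1 and Sesn1 each had a further probe set at which the groups overlapped. Over all genes 9.72% lay below both normoxia arrays on all 4 hypoxia arrays and 9.11% lay above, against 4 and 0 of the 8 genes described here. Because these genes were chosen with earlier results of these data known, the counts are not a test against all genes. A difference of at least 2-fold from the normoxia array of the same collection was seen for 1 gene higher (Btg2) and 0 lower after chronic hypoxia, where 2.53% and 2.36% of all genes were higher and lower. After cyclic hypoxia 0 were higher and 1 was lower (Trp53inp1), against 2.12% and 5.44% of all genes. After chronic hypoxia and reoxygenation the counts were 0 and 0, against 2.98% and 1.12%. After cyclic hypoxia and reoxygenation 0 were higher and 3 were lower (Trp53inp1, Ccng1 and Mdm2), against 3.56% and 10.6%, so the largest count fell on the array where lower signals were most common among all genes. The 8 genes had median log2 differences of -0.27, -0.43, -0.11 and -0.71 in these comparisons, in the same order, and all genes had medians of 0.00, -0.03, 0.00 and 0.00. The 2 hypoxia regimes share a normoxia array at each collection, so their differences from it are not independent.

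**Figure D1:**
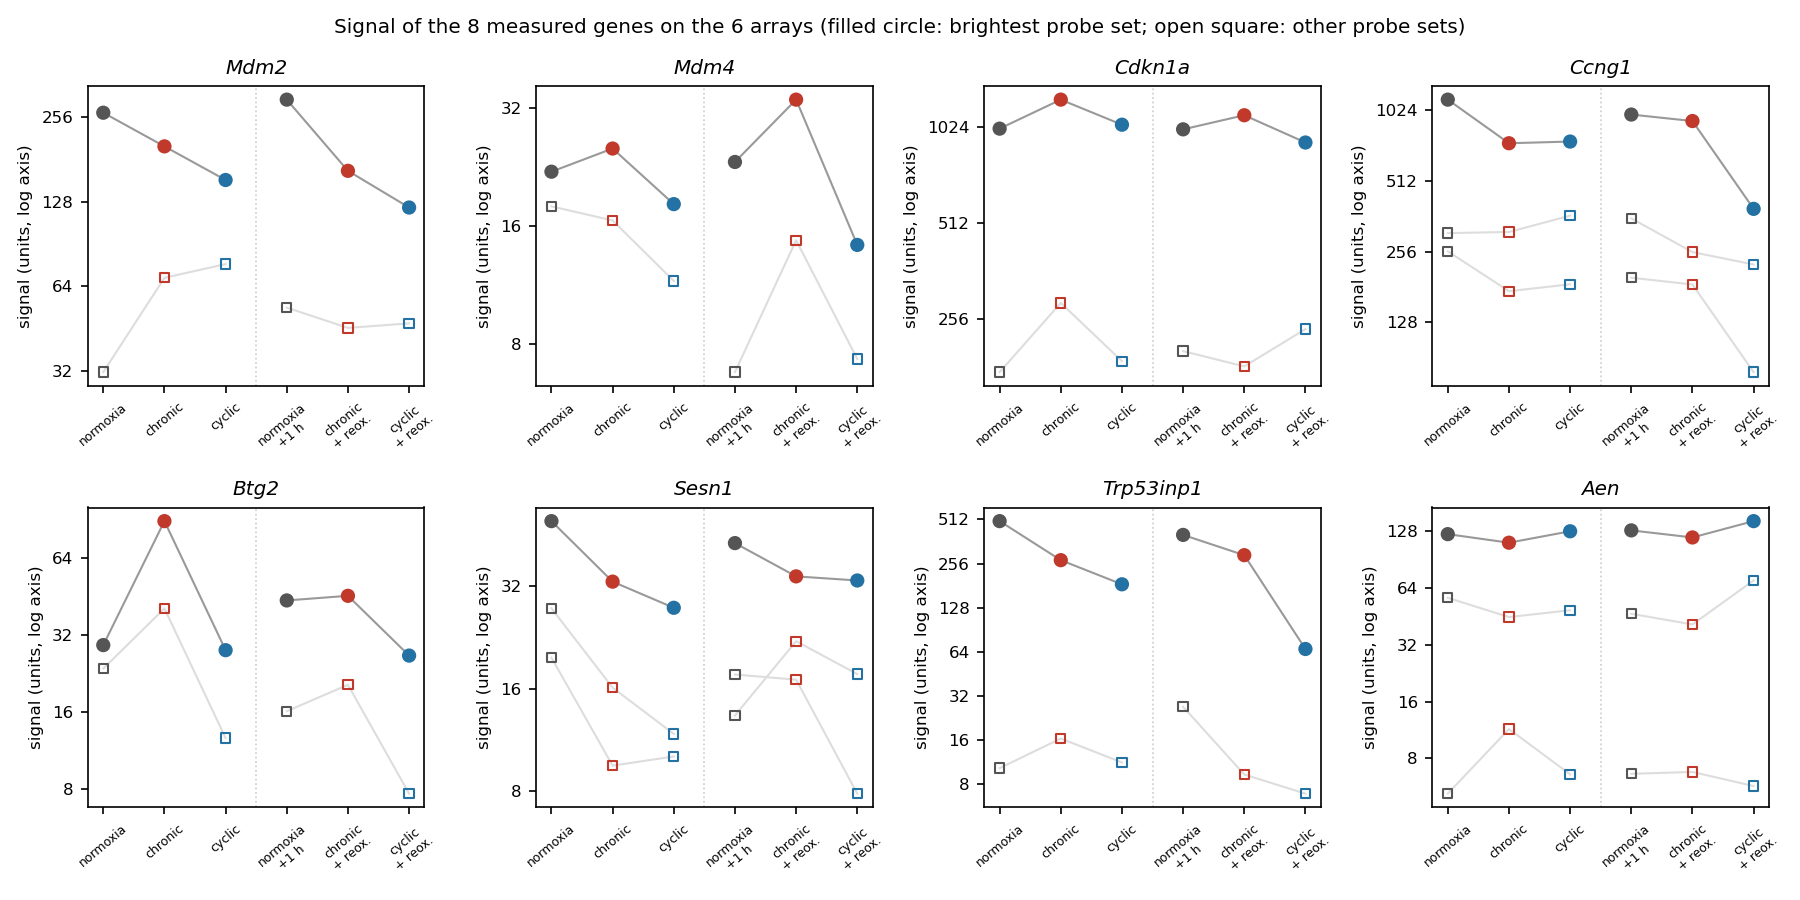
Signal of each of the 8 measured genes (vertical log axis, in units) on the 6 arrays (horizontal axis), with normoxia in grey, chronic hypoxia in red and cyclic hypoxia in blue, and lines joining the arrays of 1 collection. Filled circles are the brightest probe set and open squares the others; Trp53inp1 runs from 498 units in normoxia to 67.0 after cyclic hypoxia and reoxygenation, while Cdkn1a stays between 913 and 1243.

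With 1 array per group, a single difference has no error of its own. The test used was limma on all 6 arrays with additive terms for regime and collection. In it the 2 collections of a regime stand in for replicates and leave 2 residual degrees of freedom. Only the hypoxic cells were reoxygenated before the second collection, so a response to reoxygenation that differs between regimes enters the error. The SE is thus not a spread of replicates, and mean hypoxia averages arrays with and without reoxygenation. At an adjusted p under 0.05 over 13556 probe sets, 0 of the 8 brightest probe sets were called for mean hypoxia, chronic hypoxia, cyclic hypoxia, cyclic against chronic hypoxia, or the second against the first collection. The shares of all probe sets called were 0.0148%, 0.0959%, 0%, 0% and 0%. At an unadjusted p under 0.05 the counts among the 8 genes were 3, 1, 3, 3 and 0, and among all probe sets 1207, 725, 2024, 1960 and 376. No statement on a single gene therefore passes a correction for the number of probe sets in this fit.

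Among the inhibitors of p53, Mdm2 was lower on every hypoxia array at its brightest probe set. This brightest probe set gave 265 units in normoxia and 295 in normoxia with the further hour. The signal was 201 after chronic and 153 after cyclic hypoxia, and 165 and 122 once reoxygenation had followed. Both normoxia arrays were thus above all 4 hypoxia arrays, and at each collection cyclic hypoxia was below chronic hypoxia. The log2 differences from normoxia were -0.40 and -0.79 at the end of exposure and -0.84 and -1.27 after reoxygenation, against 0.15 between the normoxia arrays. In limma the difference was -0.83 for mean hypoxia (SE 0.189, adjusted p = 0.294), lower in 4 of 4 hypoxia arrays, and -1.03 for cyclic hypoxia (SE 0.218, adjusted p = 0.126), lower in 2 of 2. Without the array after cyclic hypoxia these became -0.89 (adjusted p = 0.0336) and -1.16 (adjusted p = 0.0197). Over the 11 alternatives the adjusted p ran from 0.0336 to 0.775 and from 0.0197 to 0.460.

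The other Mdm2 probe set did not follow the brightest. It gave 31.7 units in normoxia, 68.5 after chronic and 76.7 after cyclic hypoxia, which is 1.11 and 1.28 higher on the log2 scale. An hour later it gave 53.7 units in normoxia, 45.5 after chronic hypoxia with reoxygenation and 47.2 after cyclic hypoxia with reoxygenation, differences of -0.24 and -0.19. At this dimmer probe set the normoxia arrays differed by 0.76 and the groups overlapped. In limma it differed by 0.49 in mean hypoxia (SE 0.323, adjusted p = 0.692). The mean of both Mdm2 probe sets gave 0.36 (chronic) and 0.24 (cyclic) at the end of exposure and -0.54 and -0.73 after reoxygenation, so the direction at the end of exposure depends on the probe set. Which transcripts of Mdm2 each probe set reads is not given in the annotation used.

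Mdm4, a relative of Mdm2 that binds p53 and restrains it without efficient ligase activity of its own, was dim. Its brightest probe set gave 22.0 units in normoxia, 25.3 after chronic and 18.2 after cyclic hypoxia. An hour later it gave 23.4 units in normoxia, 33.7 after chronic and 14.3 after cyclic hypoxia. Chronic hypoxia was thus above normoxia at both collections (log2 differences of 0.20 and 0.53) and cyclic hypoxia below it (-0.27 and -0.70). The difference between the regimes was -0.85 in limma (SE 0.349, adjusted p = 0.332), and -0.55 without the array after cyclic hypoxia and reoxygenation. The dimmer probe set gave 17.98 and 6.777 units on the normoxia arrays, a difference of -1.41, and gave differences of -0.12, -0.63, 1.12 and 0.11.

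Of the targets that act on the cell cycle, Cdkn1a stayed within a narrow range. This gene encodes the cyclin-dependent kinase inhibitor through which p53 halts cells before DNA replication. Its signal was 1009 units in normoxia, 1243 after chronic and 1038 after cyclic hypoxia, and an hour later 1004, 1111 and 913. The highest array was 1.36-fold above the lowest and the groups overlapped. The log2 differences were 0.30, 0.04, 0.15 and -0.14, and limma gave 0.09 for mean hypoxia (SE 0.121, adjusted p = 0.865). At its other probe set, with 175 to 288 units, the array after chronic hypoxia was also the highest, at 0.72 above normoxia, and reoxygenation after chronic hypoxia gave -0.16.

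Ccng1, which encodes cyclin G1, a partner of the phosphatase PP2A that acts on Mdm2, was lower after hypoxia. It gave 1139 units in normoxia, 742 after chronic and 755 after cyclic hypoxia. An hour later it gave 984 in normoxia, 923 after chronic and 389.9 after cyclic hypoxia. When the exposure ended, both regimes were below normoxia by a similar amount (log2 differences of -0.62 and -0.59). After reoxygenation the array that had followed chronic hypoxia was near normoxia (-0.09) and the array that had followed cyclic hypoxia was at 39.6% of it (-1.34). In limma cyclic hypoxia differed by -0.96 (SE 0.268, adjusted p = 0.182) and mean hypoxia by -0.66 (SE 0.232, adjusted p = 0.466). Without the array after cyclic hypoxia the values were -1.47 (adjusted p = 0.00269) and -0.91 (adjusted p = 0.0163), and cyclic against chronic hypoxia then gave -1.11 (adjusted p = 0.00911, against -0.61 and 0.351 with all arrays). Without the array after cyclic hypoxia and reoxygenation the same values were -0.46 (adjusted p = 0.401), -0.41 (adjusted p = 0.320) and -0.11 (adjusted p = 0.906). Without the array after chronic hypoxia mean hypoxia gave -0.44, and cyclic against chronic hypoxia gave -1.06 without that array and -0.16 with the reoxygenated chronic array left out. Over the 11 alternatives the adjusted p for cyclic, mean, and cyclic against chronic hypoxia ran from 0.00269 to 0.565, from 0.0163 to 1 and from 0.00911 to 1. All 3 Ccng1 probe sets carry the same cDNA accession. The third gave -0.56, -0.47, -0.10 and -1.34, close to the brightest, and the second, brighter than the third, gave 0.02, 0.25, -0.48 and -0.65.

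Btg2 was the 1 member at least 2-fold higher after chronic hypoxia. It encodes an antiproliferative protein of the BTG/TOB family that recruits the CCR4-NOT deadenylase, and it is also an immediate-early gene. Its signal was 29.2 units in normoxia, 89.6 after chronic and 27.9 after cyclic hypoxia. An hour later the values were 43.8 in normoxia, 45.6 after chronic and 26.6 after cyclic hypoxia. The array after chronic hypoxia alone stood apart, 3.07-fold above normoxia (log2 difference 1.62), while the normoxia arrays differed by 0.58. Cyclic hypoxia gave -0.07 at the end and -0.72 after reoxygenation. Over the last hour of the chronic regime the signal went to 50.9% of its level. In limma the chronic difference was 0.84 (SE 0.375, adjusted p = 0.948) and cyclic against chronic hypoxia gave -1.23 (SE 0.375, adjusted p = 0.245), lower at 2 of 2 collections. The chronic value was 0.22 without the array after chronic hypoxia, 0.29 without normoxia, 1.39 without normoxia of the later collection and 1.45 without chronic hypoxia with reoxygenation. Cyclic against chronic hypoxia was -0.62 without the array after chronic hypoxia and -1.85 with the reoxygenated chronic array left out. The other Btg2 probe set had the same signs in all 4 comparisons (0.79, -0.90, 0.34 and -1.07).

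**Figure D2:**
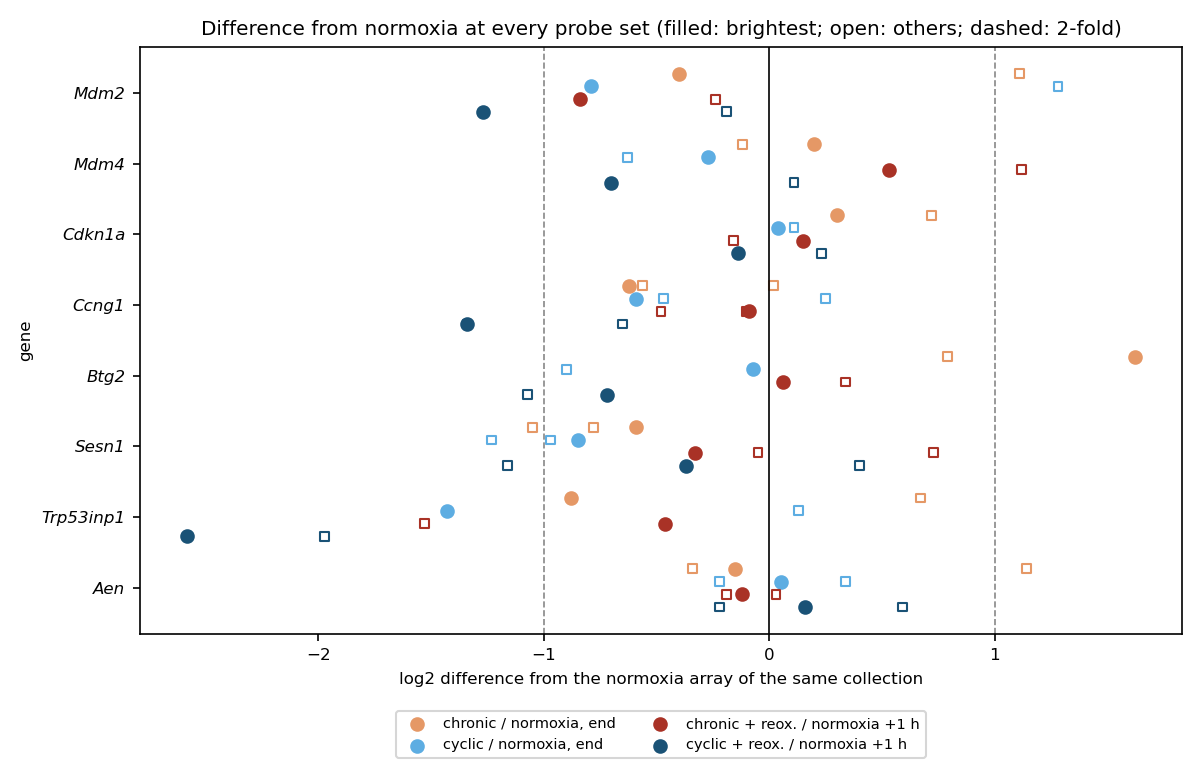
Log2 difference from the normoxia array of the same collection (horizontal axis) for each gene (vertical axis), with 1 colour for each of the 4 hypoxia arrays, filled circles for the brightest probe set, open squares for the other probe sets and dashed lines at 2-fold. Trp53inp1 reaches -2.58 and Btg2 1.62; for Mdm2 the open squares at the end of exposure lie on the far side of 0 from the filled circles.

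Sesn1, a stress-inducible sestrin that restrains mTORC1, was dim and below normoxia on every hypoxia array. It gave 49.8 units in normoxia, 33.0 after chronic and 27.7 after cyclic hypoxia, and an hour later 42.9, 34.2 and 33.3. The log2 differences were -0.59, -0.85, -0.33 and -0.37, and limma gave -0.53 for mean hypoxia (SE 0.238, adjusted p = 0.568), and -0.35 without the first normoxia array. The hypoxia arrays did not overlap the normoxia arrays, by a margin of 0.33. One of its dimmer probe sets had the same sign in all 4 comparisons, and the other gave -0.78 and -1.23 at the end and 0.73 and 0.40 after reoxygenation.

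Among the targets tied to cell death, Trp53inp1 had the most negative log2 difference of the 8 genes in 3 of the 4 comparisons with normoxia; after chronic hypoxia and reoxygenation that of Mdm2 was more negative. It encodes a stress-induced nuclear protein that takes part in p53-dependent apoptosis and in autophagy. Its brightest probe set gave 498 units in normoxia, 270 after chronic and 185 after cyclic hypoxia. An hour later it gave 401 in normoxia, 292 after chronic and 67.0 after cyclic hypoxia. All 4 hypoxia arrays were below both normoxia arrays, and cyclic hypoxia was below chronic hypoxia at each collection, most of all after reoxygenation. The log2 differences were -0.88 and -1.43 at the end of exposure and -0.46 and -2.58 after reoxygenation, so the last array stood at 16.7% of its control. The normoxia arrays differed by -0.31. Among the 3573 genes whose mean signal reached 100 units, 0.196% were as low or lower after cyclic hypoxia, and again 0.196% after cyclic hypoxia and reoxygenation.

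In limma Trp53inp1 differed by -2.01 for cyclic hypoxia (SE 0.345, adjusted p = 0.109), lower in 2 of 2 arrays, and by -1.34 for mean hypoxia (SE 0.299, adjusted p = 0.288), lower in 4 of 4. For chronic hypoxia it differed by -0.67 (SE 0.345, adjusted p = 1), and cyclic against chronic hypoxia gave -1.33 (SE 0.345, adjusted p = 0.212). Single arrays moved these values. Cyclic hypoxia gave -1.32 without the array after cyclic hypoxia and reoxygenation and -2.69 without the array after cyclic hypoxia. Chronic hypoxia gave -0.17 without the array after chronic hypoxia and -1.17 without the one after chronic hypoxia and reoxygenation. Cyclic against chronic hypoxia gave -0.65 and -2.02 without those cyclic arrays, in that order, and -0.83 with the reoxygenated chronic array left out. The cyclic call changed too. The adjusted p was 0.000891 without the array after cyclic hypoxia, 0.0465 without that after chronic hypoxia, 0.0423 without that after chronic hypoxia and reoxygenation, and 0.00479 with each array centred on its median. Over the 11 alternatives it ran from 0.000891 to 0.486. For mean hypoxia it was 0.00508 without the array after cyclic hypoxia, 0.0466 without that after cyclic hypoxia and reoxygenation and 0.0268 with median centring, in a range of 0.00508 to 0.705. Cyclic against chronic hypoxia reached 0.00149 without the array after cyclic hypoxia, in a range of 0.00149 to 1.

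The second Trp53inp1 probe set, made from the same cDNA sequence, was near background and less regular. It gave 10.3 units in normoxia, 16.4 after chronic and 11.3 after cyclic hypoxia, and an hour later 27.1, 9.35 and 6.92. The differences were 0.67 and 0.13 at the end of exposure, opposite to the brightest probe set, and -1.53 and -1.97 after reoxygenation, in the same direction. Its normoxia arrays differed by more than the hypoxia arrays did from normoxia at the end of exposure. The mean of both probe sets was -0.11 (chronic) and -0.65 (cyclic) at the end of exposure and -2.27 after cyclic hypoxia and reoxygenation, so Trp53inp1 was no longer 2-fold lower after cyclic hypoxia on that measure.

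Aen, an exonuclease that digests DNA in p53-dependent apoptosis, was flat. Its signal was 124 units in normoxia, 111 after chronic and 128 after cyclic hypoxia, and an hour later 129.5, 119 and 145.0. The highest array was 1.30-fold above the lowest, the groups overlapped, and the log2 differences were -0.15, 0.05, -0.12 and 0.16. The other Aen probe set that passed the filter gave -0.34, -0.22, -0.19 and 0.59. In limma mean hypoxia gave -0.02 (SE 0.181, adjusted p = 0.989).

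**Figure D3:**
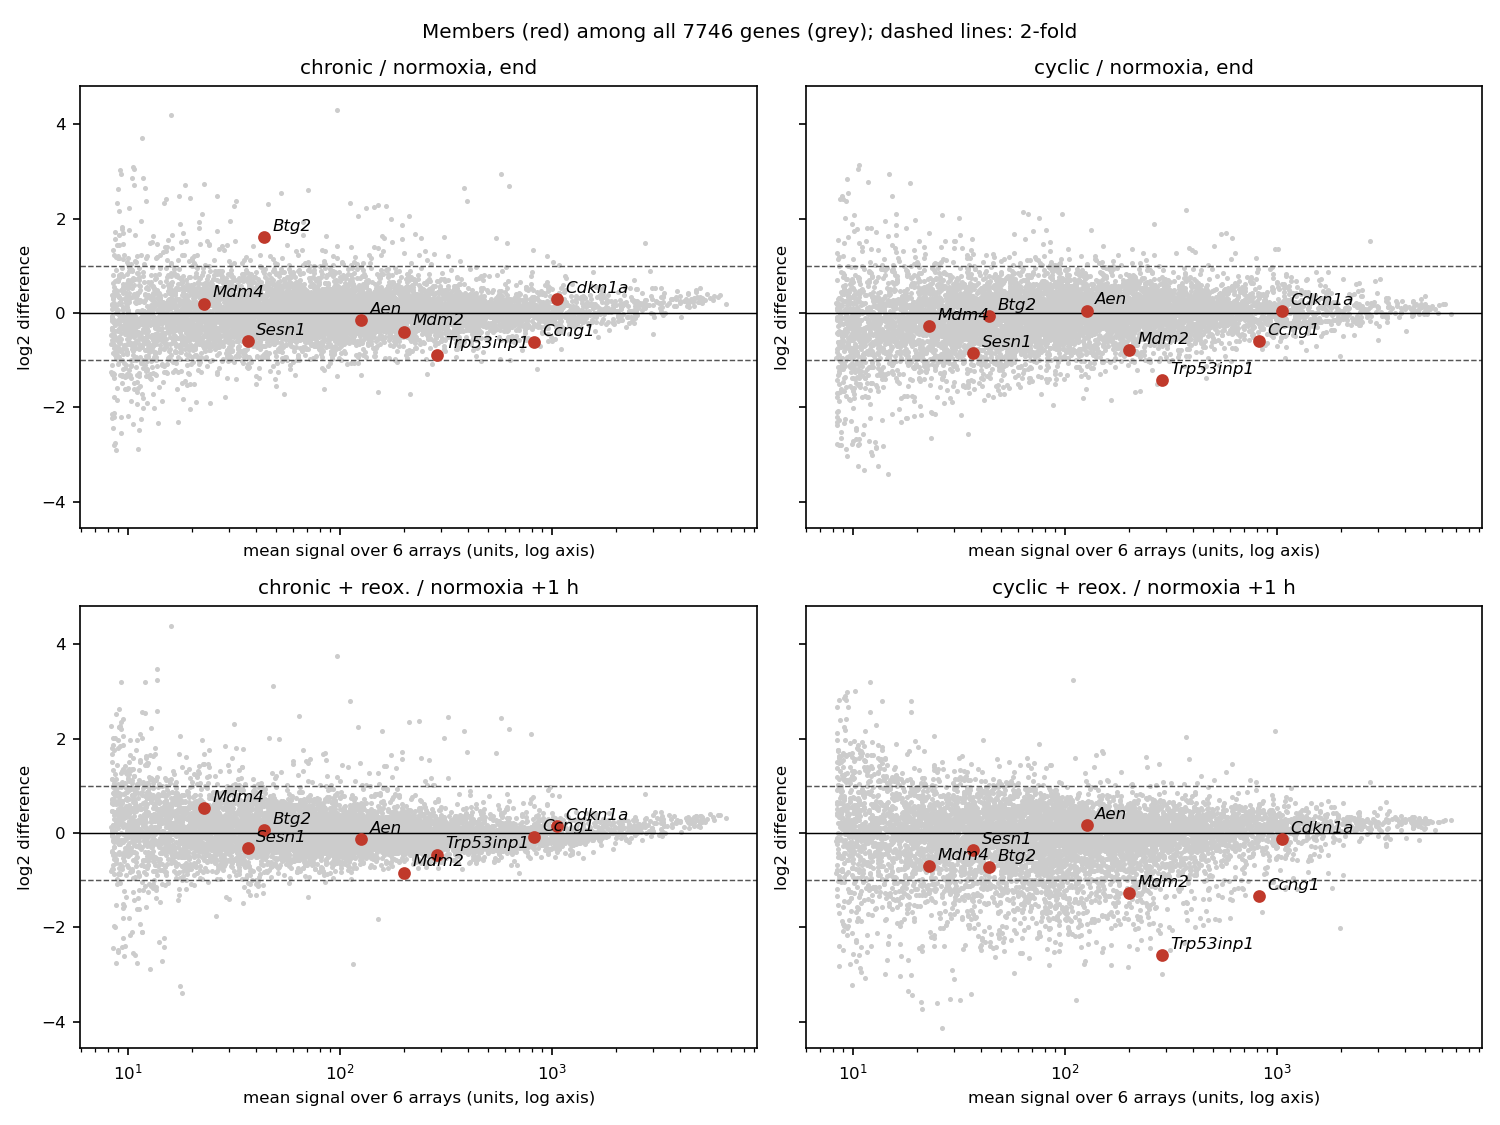
Log2 difference from normoxia (vertical axis) against mean signal over the 6 arrays (horizontal log axis, in units) for 7746 genes in grey and the 8 measured genes in red, with 1 panel for each hypoxia array and dashed lines at 2-fold. Trp53inp1 lies at the lower edge of genes of its brightness after cyclic hypoxia, at -1.43 and then -2.58, and the cloud of all genes is widest after cyclic hypoxia and reoxygenation.

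Direct comparison of the regimes and of the last hour shows where the genes parted. Cyclic against chronic hypoxia at the end of exposure, 1 of 8 genes differed by 2-fold or more, against 4.98% of all genes, and this was Btg2 at -1.68. After reoxygenation 3 of 8 did, against 15.1%, namely Trp53inp1 (-2.12), Ccng1 (-1.24) and Mdm4 (-1.23). Mdm2 differed by -0.40 and -0.43 at the end and after reoxygenation, values that were alike at both collections. Over the last hour after chronic hypoxia 0 of 8 differed by 2-fold, against 3.67% of all genes, and Btg2 came closest at -0.97. Over the last hour after cyclic hypoxia 1 of 8 did, against 10.4%, with Trp53inp1 at -1.47 and Ccng1 next at -0.95. Between the normoxia arrays 0 of 8 did, against 2.74%, and the values ran from -0.31 for Trp53inp1 to 0.58 for Btg2.

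The other probe sets bear on how far each pattern can be read. There were 10 further probe sets that passed the filter, and in the 4 comparisons with normoxia they had the same sign as the brightest in 27 of 40 cases. The sign was the same in all 4 for 1 further probe set each of Ccng1, Btg2 and Sesn1, and in 2 of 4 for the further probe sets of Mdm2, Mdm4, Cdkn1a and Trp53inp1. The second probe set of Ccng1 and one of Sesn1 also had it in 2 of 4, and that of Aen in 3 of 4.

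The genes with the pattern most like that of Mdm2 were found by the root mean square distance between log2 profiles over the 6 arrays, each centred on its own mean, among 3572 other genes with a mean of at least 100 units. They were Spc25, a kinetochore protein of the NDC80 complex (0.0886), Mest, an imprinted gene with a hydrolase fold (0.121), and Umps, which completes pyrimidine synthesis (0.138). Hsph1, a large heat shock protein and nucleotide exchange factor for HSP70 (0.145), and Tmtc4 (0.162) came next. Spc25 for example went from 224 units in normoxia to 200.1 and 134 after chronic and cyclic hypoxia, and an hour later from 245 to 150.1 and 104. Ccng1 ranked 129 in this order at a distance of 0.295, and Trp53inp1, with its steeper course, ranked 2941 at 0.582.

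The wider p53 targets showed no shared direction. Of 50 further targets listed, 43 were on the array and 35 passed the filter, and 0 were called by limma in any of the 5 contrasts. In the 4 comparisons with normoxia, in the order used above, 2, 1, 3 and 3 of the 35 were 2-fold higher and 2, 1, 0 and 3 were lower. Over all genes 2.53%, 2.12%, 2.98% and 3.56% were higher and 2.36%, 5.44%, 1.12% and 10.6% were lower. Their medians were -0.05, 0.00, 0.02 and -0.02, against 0.00, -0.03, 0.00 and 0.00 for all genes. Among the well-known targets, Phlda3 (an inhibitor of AKT) differed by -0.10, 0.05, -0.33 and 0.11 and Zmat3 (an RNA-binding splicing regulator) by -0.13, 0.45, 0.10 and 0.39. Bbc3, which encodes the killer protein PUMA, differed by 0.30, -0.30, -0.01 and -0.76. These 3 were picked after their values were seen.

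Those 2-fold higher on at least 2 hypoxia arrays were 4. The share of all genes that meets this rule was not counted, so this count is not a result about the list as a set. Sertad1, a regulator of cyclin D-CDK4, went from 75.9 units in normoxia to 148 and 167 after chronic and cyclic hypoxia, and an hour later from 76.6 to 132 and 241, with the normoxia arrays nearly equal and all hypoxia arrays above them. Ddit4, an inhibitor of mTORC1 that HIF also induces, went from 106 units to 250.2 and 128, and an hour later from 126 to 656 and 143, so that the higher values followed chronic hypoxia. Sesn2, a sestrin like Sesn1 that ATF4 also induces, went from 44.6 units to 68.1 and 41.9, and an hour later from 20.7 to 50.2 and 61.4. Its normoxia arrays differed by -1.11, and another probe set gave -0.66 and -0.17 after reoxygenation where the brightest gave 1.28 and 1.57. The ephrin receptor Epha2 was dim (2.47 to 16.6 units), lower after chronic hypoxia (-1.26) and higher on both arrays after reoxygenation (2.26 and 2.11).

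Those lower were singled out on 1 array each and fall outside the naming rule. After chronic hypoxia they were Plk3 (-1.38, from 8.04 to 3.09 units) and Epha2 (from 5.91 to 2.47 units). After cyclic hypoxia it was Pidd1 (-2.58, from 16.1 to 2.70 units). Plk3, Epha2 and Pidd1 thus fell to values near the floor of 2.10 units. After cyclic hypoxia and reoxygenation they were the DNA polymerase Polk (-2.63), the ribonucleotide reductase subunit Rrm2b (-1.49) and Gtse1 (-1.01). Polk was higher after chronic hypoxia, by 1.20, and Plk3 after cyclic hypoxia, by 1.00.

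The listed regulators of p53 held genes that were 2-fold lower in the cyclic regime and none that were 2-fold higher. Of 29 listed regulators of p53, 20 were on the array and 16 passed the filter, with 0 called by limma. None was 2-fold different after chronic hypoxia at either collection. After cyclic hypoxia 4 were lower and 0 higher, against 5.44% and 2.12% of all genes. After cyclic hypoxia and reoxygenation 5 were lower and 0 higher, against 10.6% and 3.56%. The medians were 0.03, -0.21, -0.04 and -0.47, against 0.00, -0.03, 0.00 and 0.00 for all genes. Atm, the kinase that answers double-strand breaks, gave 90.1 units in normoxia, 78.7 after chronic and 32.8 after cyclic hypoxia, and an hour later 96.8, 91.0 and 15.3. Atr, which answers stalled replication forks, gave 25.9, 26.7 and 12.9 units and then 28.8, 27.5 and 5.11. Chek1, the kinase that Atr activates, gave 110, 67.6 and 49.4 units and then 116, 89.8 and 25.3, and another of its probe sets gave -1.16, -1.41, -0.60 and -2.99. For all 3 kinases the cyclic arrays were the lowest at each collection, and the normoxia arrays differed by 0.07 to 0.15. Their mean signals were under 100 units, at 67.4 (Atm), 21.2 (Atr) and 76.3 (Chek1). Among genes of 100 units or more, 1.46% were 2-fold lower after cyclic hypoxia and 7.61% after cyclic hypoxia and reoxygenation. Both shares are below those of all genes, so 2-fold lower signals were more common among dimmer genes. Not every kinase of the list was lower at the end of cyclic hypoxia: Hipk2, picked after its values were seen, gave 105 units in normoxia and 122 then. After cyclic hypoxia and reoxygenation Hipk2 was lower as well, at 75.5 units against 149 in the matching normoxia array (-0.98). The others past 2-fold were Chek2 after cyclic hypoxia (-1.37), and Prkdc (-1.93) and the deacetylase Sirt1 (-1.14) after cyclic hypoxia and reoxygenation. On the array after cyclic hypoxia and reoxygenation 10.6% of all genes were lower by this much, and the part of that array's distance from the rest in these values was not tested.

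**Figure D4:**
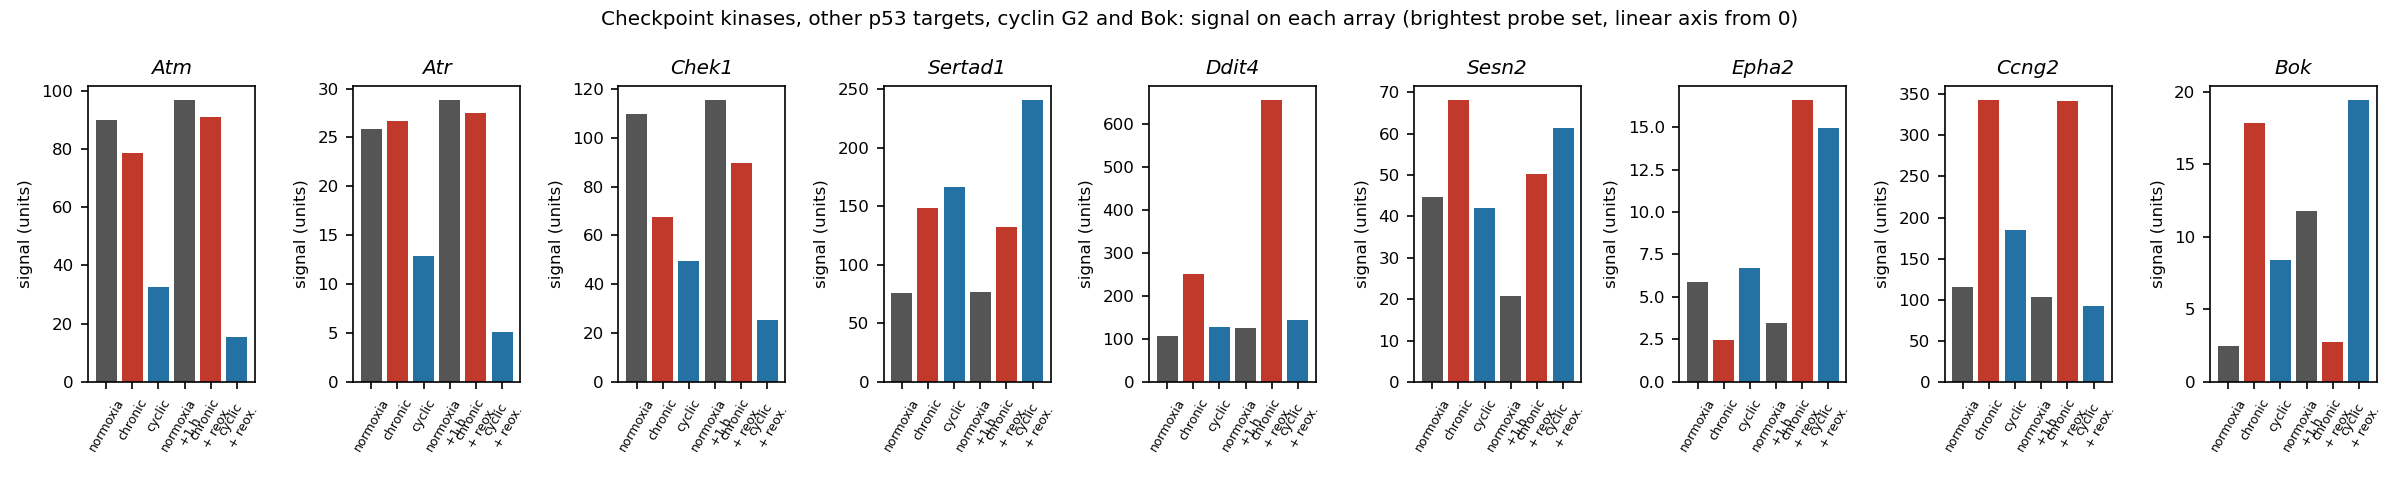
Signal (vertical axis from 0, in units) on the 6 arrays (horizontal axis; normoxia grey, chronic hypoxia red, cyclic hypoxia blue) for the 9 listed genes past 2-fold in the same direction on at least 2 hypoxia arrays. Atm, Atr and Chek1 are lowest on the cyclic arrays, at 15.3, 5.11 and 25.3 units after reoxygenation, and Ccng2 is highest on the chronic arrays, at 343 and 342 units.

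Relatives of the members were mixed. Of 12 listed paralogs and close relatives, 10 were on the array, 9 passed the filter and 0 were called by limma. In the 4 comparisons 1, 0, 2 and 2 of the 9 were 2-fold higher, against 2.53%, 2.12%, 2.98% and 3.56% of all genes. Those 2-fold lower were 0, 0, 1 and 1, against 2.36%, 5.44%, 1.12% and 10.6%. Ccng2, the cyclin G2 gene, which FOXO factors and HIF rather than p53 are known to induce, gave 116 units in normoxia, 343 after chronic and 184 after cyclic hypoxia. An hour later it gave 103 in normoxia, 342 after chronic and 91.8 after cyclic hypoxia. Its differences of 1.57 and 1.73 in the chronic regime stand beside -0.62 and -0.09 for Ccng1, and a second Ccng2 probe set gave 1.43 and 1.19. Btg1 was higher after cyclic hypoxia and reoxygenation (1.07), where Btg2 gave -0.72. On the same array Sesn3 was lower (-1.03), and after chronic hypoxia and reoxygenation Isg20, which like Aen encodes an exonuclease, was lower (-1.19).

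The BCL2 family, on which p53 acts to start apoptosis, showed no shared direction. Of 15 listed genes 14 were on the array and 10 passed the filter, with 0 called by limma. Their medians were 0.18, -0.05, -0.05 and 0.09, against 0.00, -0.03, 0.00 and 0.00 for all genes. The 1 gene past 2-fold was Bok, a BAX-like effector, which differed by 2.86, 1.78, -2.10 and 0.72 at 2.46 to 19.4 units, while its normoxia arrays differed by 2.26. Mcl1, a survival protein with a short-lived transcript, picked after its values were seen, gave 502 units in normoxia, 537 after chronic and 704 after cyclic hypoxia, and an hour later 465, 439.5 and 728. Bbc3 belongs to this list and to the wider targets, as Sesn2 belongs to those targets and to the relatives, so the lists are not independent.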

How the data were processed

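Per the labels' protocols, 5 µg of B16 RNA went onto each of 6 Affymetrix arrays, 1 per group. The deposited table gives intensity, linear and not logged, at 22690 probe sets; the submitters' processing notes name GCOS, with version and algorithm not given in the sources used here. The trimmed mean of each column, without 2% at either end, was 100, so the deposited scaling was kept. Values below 2.10 units (20th percentile) were raised to it before log2. Probe sets with means under 8.33 units (40th percentile) and 64 controls were dropped, leaving 13556. Of all probe sets 20393 named 1 gene, 691 several and 1606 none; symbols were updated by Entrez identifier.

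Differences of single arrays were counted at 2-fold without a test. limma 3.58.1 in R 4.3.3 fitted regime and collection with an intensity trend and two-sided moderated tests, Benjamini-Hochberg adjusted over all probe sets. The mean hypoxia contrast was checked on simulated data, with noise as between the normoxia arrays. No response to reoxygenation was simulated, and the other contrasts were not checked. Alternatives were quantile normalization, median centring over all probe sets, a floor at the 10th percentile, no filter, no trend, the mean over a gene's probe sets, and each array left out. Array signals hold no counts, so their number limits the precision.

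The members and lists were chosen with earlier results of these data known. From each list, genes 2-fold different in 1 direction on at least 2 hypoxia arrays are named, with other names marked where they were picked later. Mdm2's nearest genes are the 5 with the smallest distance. p53 and Bax are not reported here.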

Additional observations from a re-analysis of the deposited data

Results flagged for a closer look

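For 3 genes both chronic arrays differed from normoxia in one direction and both cyclic arrays in the other. Mdm4 gave 0.20 and 0.53 in the chronic and -0.27 and -0.70 in the cyclic regime, a difference of 0.85 between their means. limma gave -0.85 for cyclic against chronic hypoxia (adjusted p = 0.332). Btg2 gave 1.62 and 0.06 against -0.07 and -0.72, a difference of 1.23 (adjusted p = 0.245), and its dimmer probe set had the same 4 signs. At the brightest Btg2 probe set the 0.06 became -0.01 with quantile normalization and -0.07 with median centring. The -0.07 of cyclic hypoxia became 0.06 and 0.05, so these 2 signs depend on the scaling. Aen gave -0.15 and -0.12 against 0.05 and 0.16, a difference of -0.24 (adjusted p = 0.629). The other probe sets of Mdm4 (-0.12 and 1.12 in the chronic, -0.63 and 0.11 in the cyclic regime) and Aen (-0.34 and -0.19, -0.22 and 0.59) did not have this pattern. None of the 3 differences passed the test, and Mdm4 and Btg2 are dim genes.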

How the results depend on the processing

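The same members were past 2-fold under quantile normalization, median centring, the lower floor and no filter. The mean over a gene's probe sets changed which they were: after cyclic hypoxia Trp53inp1 (-0.65) gave way to Sesn1 (-1.01), and after cyclic hypoxia and reoxygenation Mdm2 (-0.73) was no longer among them, leaving 2 in place of 3. In limma the count of members called was 0 for every contrast under quantile normalization, the lower floor, no filter and no trend. Median centring called 1 member (Trp53inp1) for mean hypoxia and 1 (Trp53inp1) for cyclic hypoxia, and it moved the median of all genes by up to 0.16 after cyclic and -0.13 after chronic hypoxia with reoxygenation. Leaving out each array in turn gave 0 to 3 members for mean and for cyclic hypoxia and 0 to 2 for cyclic against chronic hypoxia. The highest counts came without the array after cyclic hypoxia, which leaves 1 residual degree of freedom and rests the cyclic regime on the array that stood apart; the cause was not tested. Over all probe sets, the count called for mean hypoxia was 2 as reported, 24 with quantile normalization, 48 with median centring, 1 with the lower floor, 0 without the filter and 0 without the trend, and 4 to 518 with an array left out. For chronic hypoxia it was 13, and 21, 42, 13, 0, 0 and 3 to 70 in that order, and for cyclic hypoxia 0, and 20, 297, 0, 0, 0 and 4 to 1268. For cyclic against chronic hypoxia it was 0, and 95 with median centring and 0 to 1333 with an array left out. Values near 0 changed sign. For mean hypoxia Mdm4 ran from -0.21 to 0.09 (0.07 without the array after chronic hypoxia), Btg2 from -0.33 to 0.77 (-0.08 without that array), and Aen from -0.05 to 0.03 (0.03 with median centring, 0.02 and 0.01 without an array). For chronic hypoxia Ccng1 ran from -0.80 to 0.09. For cyclic hypoxia Cdkn1a ran from -0.13 to 0.08 (0.08 with median centring, 0.03 and 0.00 without an array) and Btg2 from -0.94 to 0.16. No paired analysis of replicates was possible because each group has 1 array. The collection, which ties each hypoxia array to a normoxia array, is already a term of the fit. Dim genes, Mdm4, Sesn1 and Btg2 among the members, are limited by signal over background.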
